A study of Hipposideros armiger with 2 samples.

Results

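Neutrophils, the short-lived phagocytes that are among the earliest white cells to reach infected or injured tissue, carry their antimicrobial proteins in granules that are filled in sequence while the cell matures in the bone marrow. The transcripts of azurophil (primary) granule proteins such as MPO are made in early precursors, those of specific granule proteins such as LTF, CAMP and LCN2 at a later stage, and those of gelatinase granule proteins such as MMP9 close to release into blood, as known from human and mouse bone marrow. The calgranulins S100A8, S100A9 and S100A12 are small calcium-binding proteins held in the neutrophil cytosol. S100A8 and S100A9 pair to form calprotectin, which withholds zinc and manganese from microbes. In liver the same genes are used to follow neutrophils in the sinusoids, with the known caveat that hepatocytes and epithelia also make LCN2 and that monocytes also make calgranulins.

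The 10 genes described here were taken by name from 12783 distinct gene names: S100A8, S100A9, S100A12, MPO, LTF, LCN2, CAMP, MMP8, MMP9 and CSF3R. Values of all assembled genes that carry the same name, whatever its case, were summed, and all 10 names were present, on 16 assembled genes. The choice of names used no measured value of these libraries, although it was made with earlier results of them known.

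RNA was sequenced from Hipposideros armiger, the great Himalayan leaf-nosed bat, with 2 libraries from wild-caught animals of the CW cave in Guangdong whose libraries are labelled as WT liver with exposure to heavy metals. The design text describes adult males, and the label of replicate 2 repeats this. The study addressed liver function under such exposure. The YD cave was not analysed here. There is thus 1 group, no comparison between groups and no p-value. Replicate 1 had 18741210 expected counts and replicate 2 had 18778331.

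The tissue label was checked against marker genes before any result. Hepatocyte markers, 12 of 12 found, summed to 10995 TPM (a level per length, scaled to a fixed total per library) in replicate 1 and 322 TPM in replicate 2. Airway and alveolar epithelium markers, 9 of 10 found, summed to 11866 TPM and 18893 TPM in the same order. Both libraries thus held airway transcripts under a liver label, and replicate 2 held few hepatocyte transcripts. For this reason each level below is given for each library, which is also its value without the other library. In bulk tissue, fewer cells of a type and less RNA per cell cannot be told apart.

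The neutrophil genes were present in both libraries at very unequal levels. LCN2 and the calgranulins lay between 354 and 3158 TPM over the libraries, the receptor CSF3R and the antimicrobial peptide precursor CAMP between 18.2 and 69.9 TPM, and LTF, MMP8 and MMP9 between 2.69 and 11.6 TPM, while MPO was listed at 0. Together the members summed to 3413 TPM in replicate 1 against 5223 TPM in replicate 2 (4318 ± 1280, SD, n = 2), which is 0.342% and 0.524% of all TPM. By counts they held 0.237% of replicate 1 (Wilson 95% interval 0.235% to 0.239%) and 0.325% of replicate 2 (0.322% to 0.327%). These intervals, like all others below, cover counting error alone and not the spread between animals. They may be too narrow for counting error too, because the reads carry no molecular identifiers and some may be copies of 1 molecule. LCN2 and the 3 calgranulins made up 97.6% of the summed TPM in either library, and the other 6 members summed to 81.5 and 123 TPM.

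**Figure D1:**
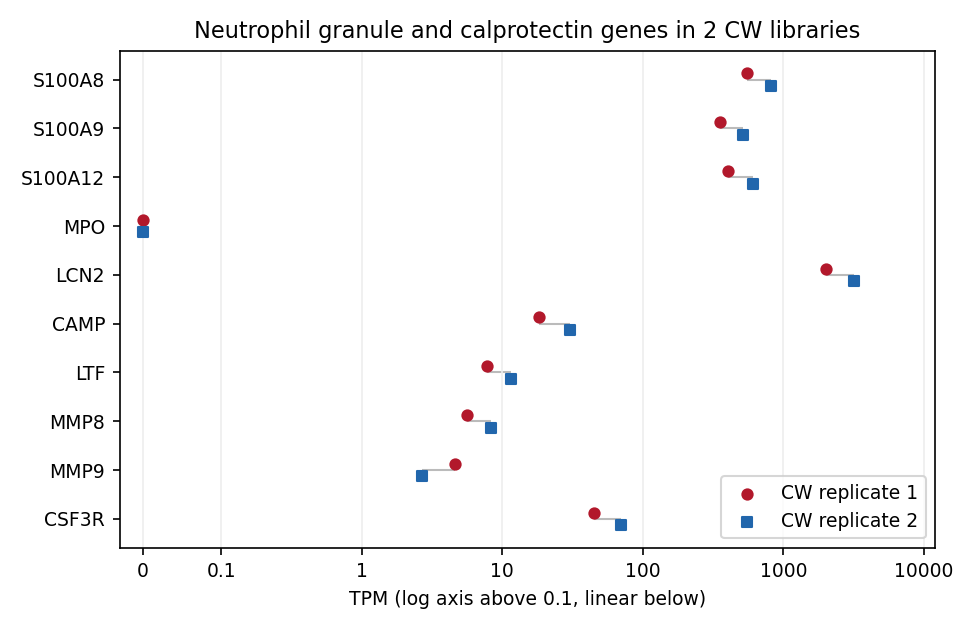
TPM of each member (horizontal axis, logarithmic above 0.1 and linear below) in CW replicate 1 (red circles) and CW replicate 2 (blue squares), 1 point per library. LCN2 lies highest at 2019 and 3158 TPM, MPO is at 0 in both, and MMP9 is the member whose replicate 1 value is the higher.

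The calgranulins were similar in level to one another. S100A8 was at 555 TPM in replicate 1 against 816 TPM in replicate 2 (685 ± 185, SD, n = 2), from 3175 counts (exact Poisson 95% interval 3066 to 3287) and 4213 counts (4087 to 4342). S100A9, its partner in calprotectin, was at 354 and 517 TPM (435 ± 115). S100A12, which signals through the receptor AGER in humans, was at 404 and 609 TPM (506 ± 145). The order S100A8, S100A12, S100A9 was the same in both libraries, but the ranges of neighbouring genes in it overlap across libraries.

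The proportions of the calgranulins to each other varied less than their levels did. A shift that most names share cancels in such proportions. The median TPM ratio of replicate 1 over replicate 2 was 0.768 over the 10263 names with at least 100 summed counts. The TPM of S100A8 was 1.57 times that of S100A9 in replicate 1 and 1.58 times in replicate 2. S100A12 was at 1.14 and 1.18 times S100A9. As a group the calgranulins held 38.5% of the members' summed TPM in replicate 1 and 37.2% in replicate 2. In RefSeq's gene list for this bat (assembly ASM189008v1), S100A8, S100A12 and S100A9 are consecutive entries, followed by PGLYRP4, a peptidoglycan recognition gene; no coordinates were used. All 10 members have an entry in that list.

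LCN2, a lipocalin that binds bacterial siderophores and so keeps iron from bacteria, was the highest member. It was at 2019 TPM in replicate 1 against 3158 TPM in replicate 2 (2588 ± 806, SD, n = 2), from 32737 counts (32383 to 33094) and 45419 counts (45002 to 45839). It ranked 30 and 25 among all names by TPM, and held 59.2% and 60.5% of the members' sum. Its level was 3.64 times that of S100A8 in replicate 1 and 3.87 times in replicate 2.

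The other specific granule genes were far lower than LCN2. CAMP, the precursor of the cathelicidin peptide that permeabilises bacterial membranes, was at 18.2 TPM from 133 counts in replicate 1 against 30.2 TPM from 195 counts in replicate 2. LTF, which encodes the iron-binding protein lactoferrin, was at 7.85 TPM from 279 counts and 11.6 TPM from 365 counts. MMP8, the neutrophil collagenase, was at 5.64 TPM from 394 counts and 8.34 TPM from 518 counts. These genes share a granule class with LCN2, but the TPM of LCN2 was 257 times that of LTF in replicate 1 and 272 times in replicate 2.

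MMP9, the gelatinase of tertiary granules, which forms a complex with LCN2 protein in human neutrophils, was the lowest member with counts. It was at 4.58 TPM in replicate 1 against 2.69 TPM in replicate 2, from 29 counts (19.4 to 41.6) and 15 counts (8.40 to 24.7). Its only assembled gene was 520 bases long and carried the hemopexin domain, so the name rests on a fragment. CSF3R, the receptor for the granulocyte growth factor G-CSF, was at 45.2 and 69.9 TPM (57.5 ± 17.5), from 1202 and 1646 counts. Down the order of levels, the ranges of LTF and MMP8 also overlap, whereas those of LCN2 and S100A8, S100A9 and CSF3R, CSF3R and CAMP, CAMP and LTF, and MMP8 and MMP9 do not. Unlike MMP9, CSF3R rested on a long assembled gene, of 3808 bases with 11 transcripts.

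MPO, the peroxidase that makes hypochlorous acid and is a widely used marker of azurophil granules, had an assembled gene of 2256 bases with a peroxidase domain and 0 counts in either library. At that length the detection floor used here, 3 counts, corresponds to 0.059 TPM in replicate 1 against 0.066 TPM in replicate 2. The level of MPO was therefore not detectable at this depth.

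Further azurophil granule genes ranged from 0 counts to a clear signal. Of the 10 on the list, 7 were found by name, of which the serine protease CTSG, the defensin DEFA1 and the precursor marker MS4A3 had 0 counts in both libraries. The elastase ELANE and the protease PRTN3 had 0 counts in replicate 1 and 1 count in replicate 2. PRSS57, a further granule serine protease, had 7 and 11 counts, at 1.17 and 2.02 TPM. BPI, which binds bacterial lipopolysaccharide, had the most of those found by name, with 91 counts (7.92 TPM) in replicate 1 and 53 counts (5.54 TPM) in replicate 2. AZU1, DEFA3 and DEFA4 matched no name. An assembled gene without a name, looked up after the values were seen, best matched neutrophil defensin 4 of the rhesus macaque, an azurophil granule peptide, and was at 15.1 TPM from 101 counts in replicate 1 against 29.0 TPM from 171 counts in replicate 2.

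Genes listed for later granules were all detected where their name was found. Of 12 further names listed for specific and gelatinase granules, 9 were found and all 9 were above 1 TPM in both libraries. HP, whose product haptoglobin is stored in specific granules but is also secreted by hepatocytes, was at 5160 TPM in replicate 1 against 6997 TPM in replicate 2. LYZ (lysozyme) was at 248 and 358 TPM and CHI3L1, a chitinase-like protein, at 157 and 239 TPM; monocytes, macrophages and epithelia are known to make both. OLFM4, a glycoprotein of a subset of specific granules in humans, had 665 and 897 counts, and PGLYRP1, a peptidoglycan-binding granule protein, had 194 and 273 counts. The list also holds LTA4H, a cytosolic enzyme of leukotriene synthesis that is no granule protein.

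**Figure D2:**
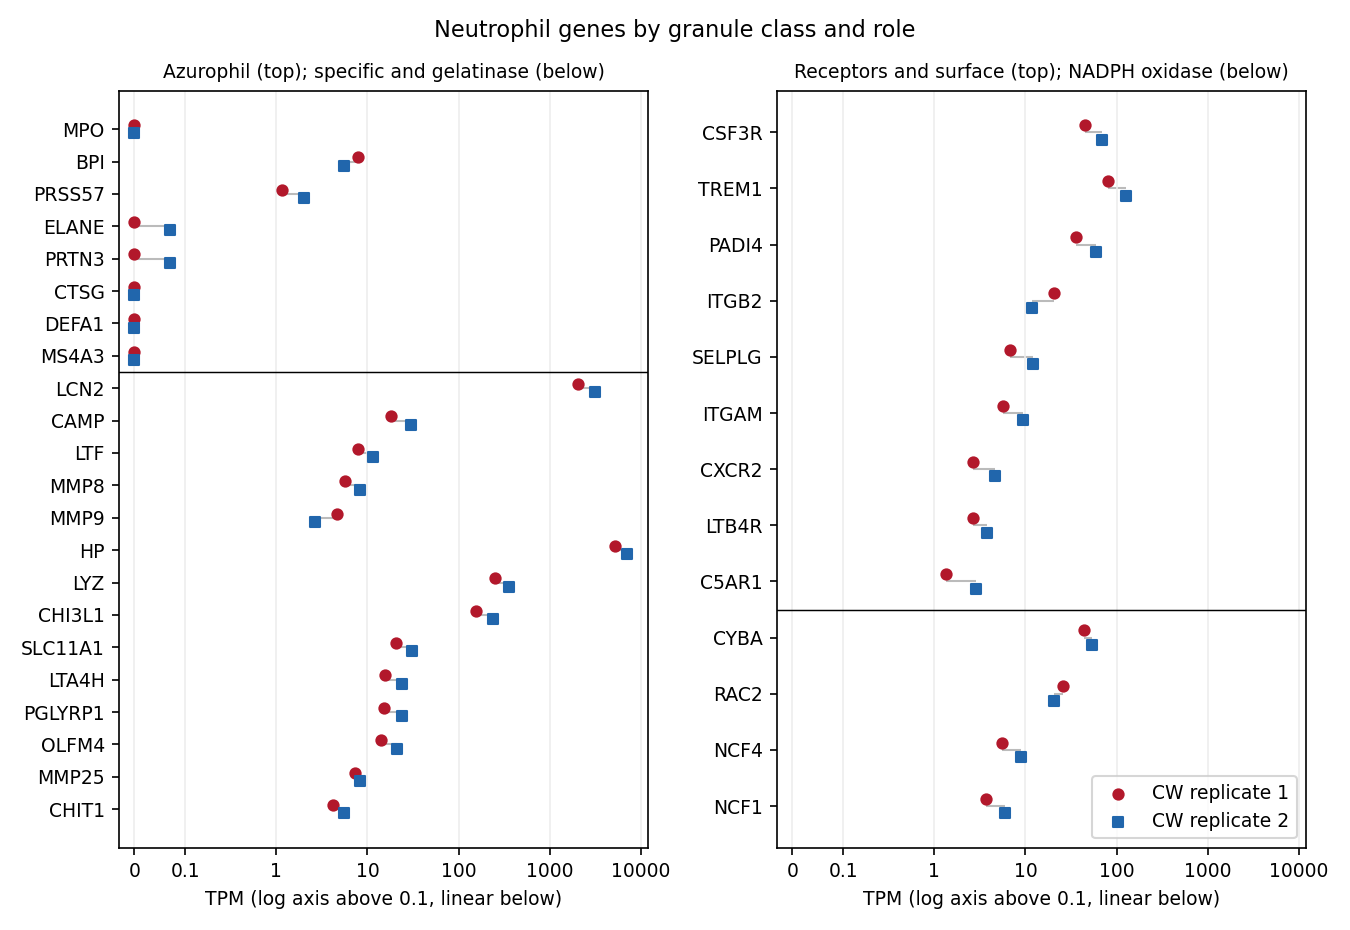
TPM (horizontal axes, logarithmic above 0.1 and linear below) of azurophil granule genes above specific and gelatinase granule genes (left), and of receptors and surface proteins above NADPH oxidase genes (right), with members first in their block; red circles are CW replicate 1 and blue squares CW replicate 2. Among the azurophil genes plotted, BPI and PRSS57 pass 1 TPM, whereas the specific and gelatinase genes range from 2.69 TPM for MMP9 to 6997 TPM for HP.

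Genes of the mature neutrophil surface were measured in both libraries beside CSF3R. Of 14 listed, 9 were found, all above 1 TPM in each library. TREM1, an activating receptor of neutrophils and monocytes, was at 80.5 TPM in replicate 1 against 125 TPM in replicate 2. PADI4, the enzyme that citrullinates histones when neutrophils release chromatin (listed here for its cell type, as it is not a surface protein), was at 35.8 and 59.8 TPM. The chemokine receptor CXCR2 was at 2.66 and 4.62 TPM.

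The phagocyte NADPH oxidase, which makes superoxide, was represented by 5 of 6 listed genes. CYBA, a membrane subunit made in many cell types, was at 43.9 and 53.1 TPM, and RAC2, its small GTPase, at 25.7 and 20.6 TPM. The cytosolic subunit NCF1 was at 3.72 and 5.91 TPM, and NCF4 at 5.51 and 9.03 TPM. CYBB matched no name.

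Transcription factors of the granulocyte lineage were led by CEBPB at 51.9 and 58.6 TPM, CEBPD at 40.3 and 45.2 TPM, and SPI1, which encodes PU.1, at 25.4 and 38.0 TPM. CEBPE and GFI1, which act during granule formation, matched no name. Among signals that raise or attract neutrophils, 6 of 12 were found. The cytokine IL1B led at 63.8 and 81.2 TPM. The chemokine CXCL8 was at 18.6 and 13.8 TPM, although its counts were 123 and 149. IL6 was listed at 10.2 and 21.7 TPM but had 9 and 15 counts, so its level is poorly determined. CSF3, the ligand of CSF3R, matched no name.

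The binding partners of the members' products were also present. AGER, the receptor of S100A12 and a known product of alveolar type I cells, was at 456 TPM in replicate 1 against 729 TPM in replicate 2. BSG, a widely made glycoprotein that binds S100A9, was at 348 and 475 TPM, and the scavenger receptor CD36 at 62.4 and 42.1 TPM. LRP1, an endocytic receptor that takes up lactoferrin, was at 82.3 and 85.7 TPM. LRP2, which takes up LCN2 in kidney, was at 21.8 and 54.7 TPM, from 498 and 686 counts. SLC22A17, a further LCN2 receptor, had 107 and 162 counts. Of 10 protease inhibitors all were found: TIMP1, which binds MMP9, was at 83.2 and 117 TPM, A2M at 99.4 and 51.7 TPM, and CSTB at 80.0 and 88.5 TPM.

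Within their own families the members stood at different places. Among 14 other S100 genes found, S100P, S100A10 and S100A11 were the highest. They were at 400, 348 and 279 TPM in replicate 1 against 577, 541 and 450 TPM in replicate 2. All 3 lay below S100A8 in each library. S100P lay above S100A9, at 354 and 517 TPM, in both libraries, and S100A10 did so in replicate 2. S100A7, a calcium-binding protein of skin, had 0 counts in both. Among 8 other matrix metalloproteinases found, MMP7, an epithelial enzyme, was at 71.9 and 21.0 TPM, MMP14 at 23.3 and 35.4 TPM and MMP2 at 14.6 and 17.7 TPM; each of these levels is above those of MMP8 and MMP9 in both libraries.

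The difference between the libraries was measured on counts scaled with TMM (a factor that removes composition differences). It is given as the log2 ratio of replicate 1 over replicate 2 on CPM + 1, less the median over all names, for names whose mean reached 1 CPM. The pseudocount of 1 understates changes of low genes. Of the 10 members 9 passed this filter, MPO being the one that did not. Among these 9, 0 were over 2-fold higher and 0 over 2-fold lower in replicate 1, against 5.16% and 0.0266% of the 11289 names tested (5.19% in either direction). With a pseudocount of 0.1, MMP9 passed 2-fold, with a log2 ratio of 1.11.

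All members with counts except MMP9 were slightly lower in replicate 1, and closely alike. The log2 ratios of these 8 ran from -0.26 for CAMP to -0.10 for S100A9, with LCN2 at -0.21, S100A12 at -0.20, CSF3R at -0.19, S100A8 at -0.15, MMP8 at -0.13 and LTF at -0.12. The median of the 9 was -0.15, beside 0 for all names by construction and quartiles of all names at -0.13 and 0.17. Of the 9 members 5 lay below the lower quartile and 3 between the quartiles. MMP9 had a log2 ratio of 0.63; without a pseudocount it was 1.21, with a counting interval of 0.27 to 2.22.

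The precision of these ratios differed with depth. For LCN2 the counting interval of the log2 ratio ran from -0.23 to -0.19, and for S100A8 from -0.21 to -0.08. For CAMP it ran from -0.62 to 0.04, for LTF from -0.36 to 0.10 and for MMP8 from -0.33 to 0.06, all of which include 0. The spread between animals cannot be separated from these differences with 1 library on each side. In TPM, which is not adjusted for composition, the 8 genes were at 0.603 to 0.684 times their replicate 2 level in replicate 1, while the median over the 10263 names with at least 100 summed counts was 0.768.

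**Figure D3:**
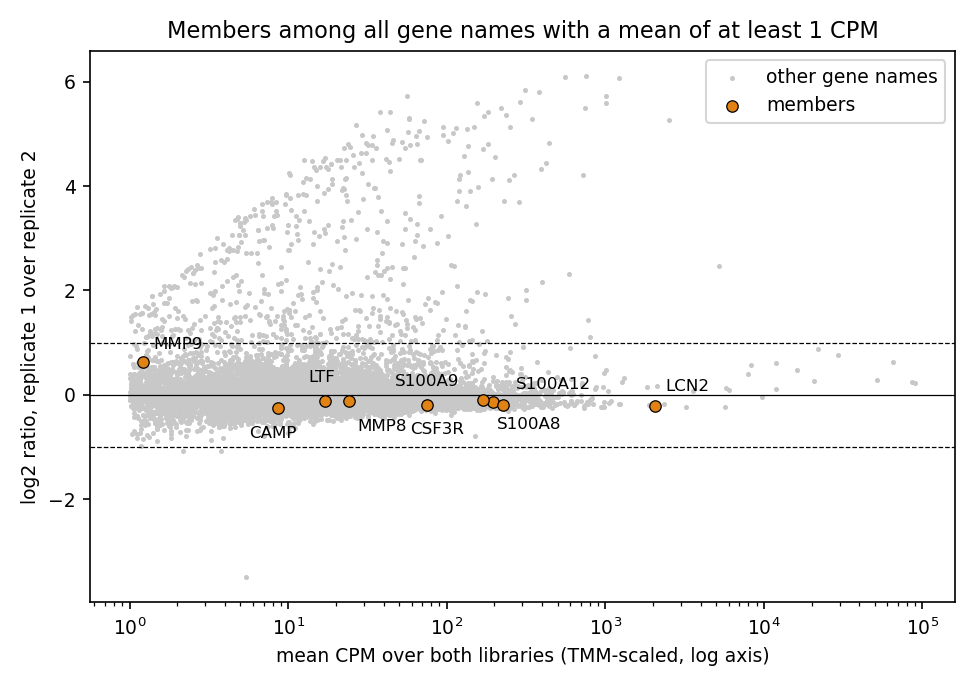
Log2 ratio of replicate 1 over replicate 2 (vertical axis) against the mean TMM-scaled CPM of both libraries (horizontal axis, logarithmic) for 11289 gene names (grey) and the 9 members tested (orange); dashed lines mark 2-fold. All 9 members lie inside the dashed lines, and MMP9, at the lowest mean, is the member above 0.

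Markers of other cell types differed between the libraries by other amounts. All 12 hepatocyte markers were over 2-fold higher in replicate 1, and their median log2 ratio was 4.42; ALB (albumin) was at 7990 TPM in replicate 1 against 176 TPM in replicate 2. Airway and alveolar epithelium markers had a median of -0.20 over 8 tested, with SFTPC (surfactant protein C) at -0.23, SCGB3A1 (a secretoglobin) at -0.23 and SFTPB at -0.19. The ratios of SFTPC, SCGB3A1 and SFTPB lie close to those of LCN2 and S100A12. BPIFA1, an airway secretory protein with 1 and 224 counts, was over 2-fold lower in replicate 1, with a log2 ratio of -3.50, and SCGB1A1, the club cell secretoglobin, was below the filter with 1 and 24 counts. The part of the epithelial and hepatocyte RNA in the members' levels was not tested.

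Monocyte and macrophage markers had a median of 0.10 over 11 tested, and erythroid markers one of 0.12 over 4. C1QC, a complement component made by macrophages, was at 91.6 TPM in replicate 1 against 129 TPM in replicate 2, and C1QA and C1QB lay between 69.1 and 96.0 TPM. MARCO, a macrophage scavenger receptor at 10.8 and 0.62 TPM, was the monocyte and macrophage marker over 2-fold higher in replicate 1. The whole list summed to 396 and 468 TPM, with 11 of 12 found and 0 at 0. The red cell globin HBA had a log2 ratio of 0.10 and HBB one of 0.13. Eosinophil and mast cell markers summed to 7.86 and 10.02 TPM, with 4 of 13 found; the eosinophil peroxidase EPX matched no name.

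The other neutrophil and partner lists had small medians of either sign. The median log2 ratio was -0.12 over 9 specific and gelatinase granule genes, -0.17 over 9 surface receptors and -0.11 over 5 NADPH oxidase genes. Of these 23 genes 0 were over 2-fold apart, against 5.19% of the 11289 names tested, a share at which few of 23 would be called. The median was -0.11 over 4 calgranulin receptors, -0.19 over 3 receptors of LCN2 and LTF, -0.20 over 12 other S100 genes and -0.04 over 4 growth and recruitment signals. Positive medians were those of 5 transcription factors (0.10), 7 other matrix metalloproteinases (0.05) and 9 protease inhibitors (0.10). In these last lists MMP7 (2.13), SERPINA1 (3.84) and SERPINA3 (1.97) were over 2-fold higher in replicate 1; both SERPIN genes encode plasma protease inhibitors made by hepatocytes. Of the azurophil list BPI alone was tested, with a log2 ratio of 0.81. With library size scaling and no centring, the median of all names was -0.24 and the positive medians of the transcription factor, metalloproteinase, inhibitor, macrophage and erythroid lists turned negative. Raising the filter to 10 CPM turned the medians positive for the receptors of LCN2 and LTF (0.30), the NADPH oxidase (0.03) and the recruitment signals (0.02). With no filter on low values the azurophil median was -0.08 and the metalloproteinase median -0.03, and with the highest assembled gene of each name alone the inhibitor median was -0.02.

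**Figure D4:**
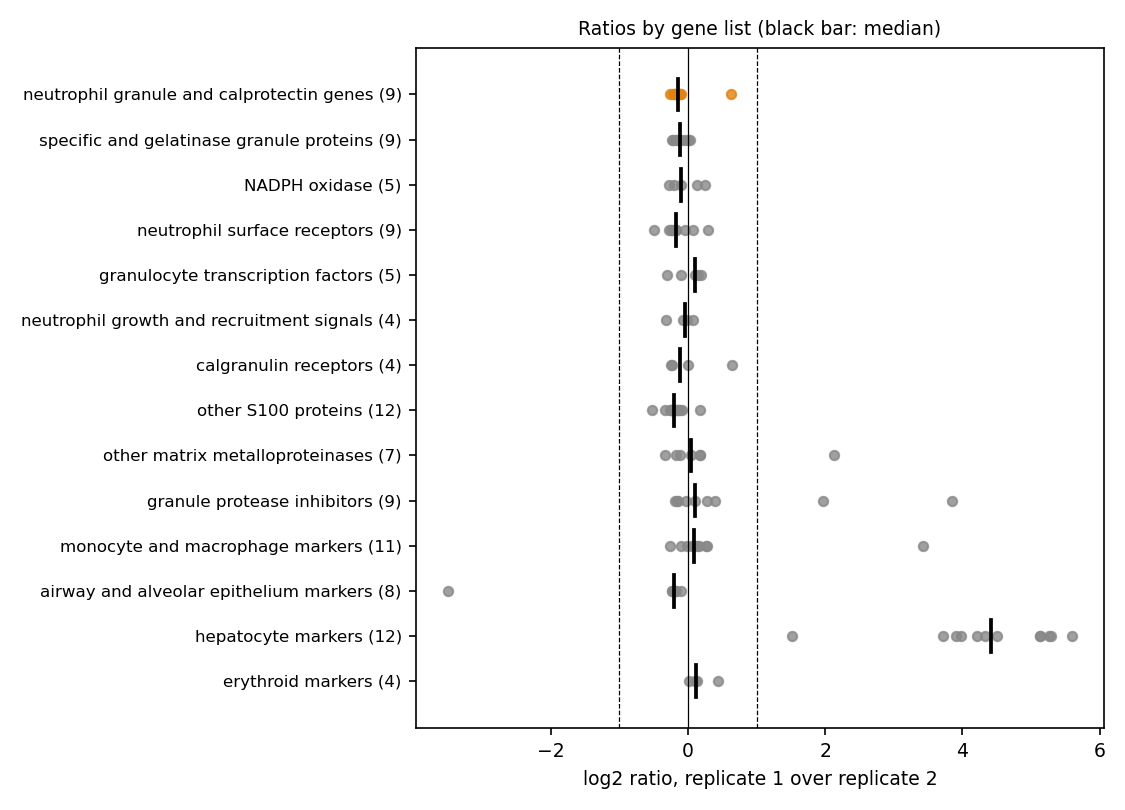
Log2 ratios of replicate 1 over replicate 2 (horizontal axis) of the tested genes of each list with at least 4 tested genes, the number in brackets, with the members in orange at the top and a black bar at each median; dashed lines mark 2-fold. The members' median is -0.15, the airway and alveolar median -0.20 and the hepatocyte median 4.42.

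The members differed in how the assembly represented them. LCN2, with 19 transcripts on 2 assembled genes, CSF3R, with 11 on 1, S100A8, with 11 on 3, and S100A9, with 7 on 3, had more than the median of 4 transcripts over names above 0 TPM; LTF, CAMP, MMP8, MMP9 and MPO had 1 each. For LCN2, 99.9% of TPM came from 1 assembled gene in each library. Best protein matches were to human, cattle, mouse, pig, dog and a leaf monkey, none of them a bat, so a name marks similarity to that protein. S100 proteins resemble each other, and reads could be split between near-identical copies.

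Most of the calgranulin signal came from 1 assembled gene per name, but smaller copies were seen in replicate 1. A second S100A12 assembled gene, 397 bases long and best matched to pig, had 79 counts (21.0 TPM) in replicate 1 and 0 in replicate 2. A second S100A8 assembled gene, 376 bases long and best matched to cattle, had 60 counts (17.8 TPM) in replicate 1 and 0 in replicate 2. Against a floor of 3 counts per library these were at least 31.9-fold and 24.2-fold higher in replicate 1.

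These copies held 5.20% of the S100A12 TPM and 3.22% of the S100A8 TPM in replicate 1. They were the 2 of 12 tested member assembled genes over 2-fold higher in replicate 1, and 0 were over 2-fold lower; over all 22025 assembled genes tested the shares were 6.81% and 0.0999%. In the whole assembly 116 assembled genes had at least 50 counts in replicate 1 and 0 in replicate 2, and 0 had the reverse. A further assembled gene each of S100A8 and S100A9 had 0 counts in both libraries.

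The tables' own gene ontology terms were present for all 10 members. The term defense response to bacterium was carried by 5 members (CAMP, MPO, S100A8, S100A9 and S100A12) and by 0.456% of the 12712 names with terms. Zinc ion binding was carried by MMP8, MMP9 and the 3 calgranulins, against 5.95% of names. Neutrophil chemotaxis was carried by CSF3R and the calgranulins, against 0.354%. RAGE receptor binding, the term for AGER ligands, was carried by the 3 calgranulins, against 0.0708%. Extracellular region was carried by CAMP, LCN2, LTF and the calgranulins, against 4.55%. These are annotations of the matched proteins, not measurements. The members were chosen as neutrophil granule and calprotectin genes, so shared terms of this kind are no independent finding.

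The names closest to a member in level were sought by the distance in log2(TPM + 1) over the 2 libraries, which allow no correlation. For S100A8 they were SETMAR (distance 0.03; 567 and 815 TPM), RPL18 (0.08; 584 and 801 TPM) and RPLP0 (0.13; 604 and 798 TPM). For LCN2 they were RPS3A (0.29; 2413 and 3450 TPM) and CDK16 (0.33; 2290 and 2599 TPM). Such closeness over 2 libraries describes level only.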

How the data were processed

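Poly(A)-selected RNA libraries from 2 CW animals were analysed. For each library the authors deposited a table of 55378 assembled genes under Trinity cluster names, the same in both. The submitters' processing notes name cutadapt 1.9, and mm10 for replicate 1 only; assembler version and quantifier are not given in the sources used here. Expected counts, so marked per the file headers, were deposited with decimals and rounded here. The other deposited column has no unit in its header and was read as TPM, since it sums to 996837 and 996239. Gene names are the authors' best Swiss-Prot matches, and 10976 of 12783 names are symbols in RefSeq's ASM189008v1 table.

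TPM and counts were summed per name. TMM factors (0.9096 and 1.0993) came from edgeR 4.0.16 in R 4.3.3, and over 2-fold means a log2 ratio above 1 or below -1. Intervals are exact or Wilson at 95%. Python 3.11.15 was used with matplotlib 3.10.9, scipy 1.17.1, numpy 2.4.6 and pandas 2.3.3. The ratio was tested on simulated counts, with equal numbers of planted rises and falls in genes of high counts. That test therefore does not cover genes of low counts such as MMP9, or differences that go mostly in 1 direction.

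Members and lists were chosen with earlier results of these data known. Named were all members, the 3 highest genes of each list, list genes over 2-fold apart, and the 3 names nearest to S100A8 and LCN2; any other gene was chosen after its values were seen. Not every gene this rule takes is printed: most hepatocyte markers are given by count and median, and a few genes are not reported here. Alternatives were another pseudocount, filters, library size and DESeq2 1.42.0 scaling, the highest assembled gene per name, and leaving out each replicate.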

Additional observations from a re-analysis of the deposited data

How the results depend on the processing

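The alternatives without centring and without LCN2 were chosen after seeing the data. The number of members over 2-fold apart moved to 1, MMP9, with a pseudocount of 0.1, and stayed at 0 in the other ratio settings. Names over 2-fold apart numbered 343 instead of 586 when the filter was raised to 10 CPM, which tests fewer names. The members' median log2 ratio of -0.15 was -0.40 with library size scaling and no centring, which shifts all names by -0.24. The members' share of TPM, 0.433% on average, was 0.586% when the 10 highest assembled genes were left out of the total, and 0.174% without LCN2, whose removal lowers the summed TPM to 1729; both follow from how the settings are built. Leaving out each replicate gave a summed TPM of 3413 to 5223, a share of TPM of 0.342% to 0.524%, a calgranulin share of 37.2% to 38.5% and 6 to 7 members at 10 TPM or more. In each of the 9 settings all members tested other than MMP9 had a log2 ratio below 0. No paired analysis was made, since the 2 libraries form 1 group. MPO, MMP9 and most azurophil genes found by name had few or 0 counts at this depth. The spread between animals of the cave is not known from 2 libraries.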

Other observations

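Assembled genes whose best match is described as a neutrophil protein, but which carry none of the members' names, were looked up after the members' values were seen. The one described with the azurophil genes, which has no gene name and is 556 bases long, best matched neutrophil defensin 4 of the rhesus macaque, and had a log2 ratio of -0.43 among assembled genes. Its level is near that of CAMP and stands beside 0 counts for MPO, CTSG and DEFA1. Another, 1099 bases long, best matched the mouse neutrophilic granule protein NGP, a cathelicidin-related protein of specific granules, with 91 counts (4.36 TPM) in replicate 1 and 122 counts (6.60 TPM) in replicate 2.

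Platelet and lymphocyte markers lay below LCN2, the calgranulins and CSF3R in both libraries. PF4 and ITGB3 lay above LTF and MMP8 in both, and CD3E lay between LTF and MMP8. The other platelet and lymphocyte markers found lay below LTF in both libraries. Of 7 platelet markers 4 were found, with the platelet chemokine PF4 at 8.47 TPM in replicate 1 against 13.1 TPM in replicate 2, ITGA2B at 1.27 and 1.91 TPM, and ITGB3 at 11.1 and 28.2 TPM from 20 and 40 counts; their median log2 ratio was -0.18 over 3 tested. Of 10 lymphocyte markers 7 were found, summing to 23.99 and 35.8 TPM, and the T cell receptor subunit CD3E led at 7.43 and 11.5 TPM; their median was -0.02 over 2 tested, and 0.08 with a pseudocount of 0.1. Mast cell markers included TPSAB1, a tryptase, at 3.16 and 5.07 TPM, and KIT, a growth factor receptor also found outside mast cells, at 4.62 and 2.01 TPM with a log2 ratio of 1.24; the median of these 2 tested genes was 0.53, but -0.16 for the list with no filter on low values.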
